A study of Mus musculus with 20 samples.

Results

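Rosiglitazone was given at the higher dose and for the longer time of this study, 10 mg/kg/day in the food for 14 days, and messenger RNA was measured in the aortas of those mice. This group is 2 of the 20 arrays of the series and its arrays were taken by their labels of dose and time. It was set against 3 arrays of chow controls, adult C57BL/6J mice on the same food without the drug. Each array carried RNA pooled from 8 aortas. Replicates are therefore pools and not mice, and a p-value measures the spread between pools. The other groups used below have 3 arrays each: adult C57BL/6J mice on 3 mg/kg/day for 2 days, 3 mg/kg/day for 14 days or 10 mg/kg/day for 2 days, P465L mice on standard chow, which carry a dominant-negative PPARγ knocked into the endogenous gene, and their wild-type littermates on standard chow. The wild-type littermates are a second untreated group beside the chow controls, and the labels give them no strain name. No sex is given, and age is given only as adult.

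Rosiglitazone is a thiazolidinedione that binds and activates PPARγ, a nuclear receptor that pairs with the retinoid X receptor and switches on genes of fatty acid uptake, storage and oxidation. PPARγ is most abundant in adipocytes and is also present in smooth muscle, endothelium and macrophages of the vessel wall. A dissected aorta can carry some of the brown-like fat that surrounds it. Heat shock proteins, which also appear below, are chaperones that hold or refold other proteins, and their genes are controlled by heat shock factors that bind repeats of GAA in the promoter.

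The arrays came scaled to a trimmed mean signal of 1500. Median probe set signals were 379.5 and 392.4 in the treated pools, against 352.2, 347.9 and 374.5 in the chow pools. The smooth muscle markers of the tissue were bright in every pool. Acta2, smooth muscle actin, had signals of 107287 and 117352 in the treated pools, against 117968, 117116 and 100906 in the chow pools. Chow pool C stood apart from the other chow pools on markers of fat and of skeletal muscle. Its summed signal over the 19 brown adipocyte markers measured was 55641, against 102541 and 93402 in chow pools A and B. Summed signals here and below include list members under the filter on low signals. Over the general adipocyte markers it was 205304, against 310726 and 314958 in chow pools A and B, and it was also lowest for the PPAR targets and lipid droplet genes. Over the 24 skeletal muscle markers measured it was 58828, against 16918 and 15965 in the other chow pools. Treated pool A stood apart on cardiac muscle markers. Its summed signal over the 13 measured was 18171, against 8555 in treated pool B and 7274, 11105 and 11048 in the chow pools. The part of heart transcripts in the values below was not tested.

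After 14 days at 10 mg/kg/day, 13 genes rose and 17 fell against chow. The genes that rose included a peroxisomal thiolase, lipid-binding proteins and an epoxide hydrolase, together with 2 heat shock chaperones. Those that fell included a cytochrome P450, an actin monomer-binding protein, an interferon-γ receptor chain and regulators of Wnt and insulin-like growth factor signalling. In all, 30 of 11081 genes tested, 0.271%, passed an adjusted p under 0.05 in limma with Benjamini-Hochberg adjustment. The 13 that rose were 0.117% of the genes tested and the 17 that fell were 0.153%. At an unadjusted p under 0.05 there were 1391 genes, 12.6% of those tested, of which 530 were higher (4.78%) and 861 lower (7.77%). The median log2 fold change of all genes tested was -0.02, and 46.0% of them were above 0. All changes are on the scale of log2(signal + 72), which understates the change of dim genes.

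**Figure D1:**
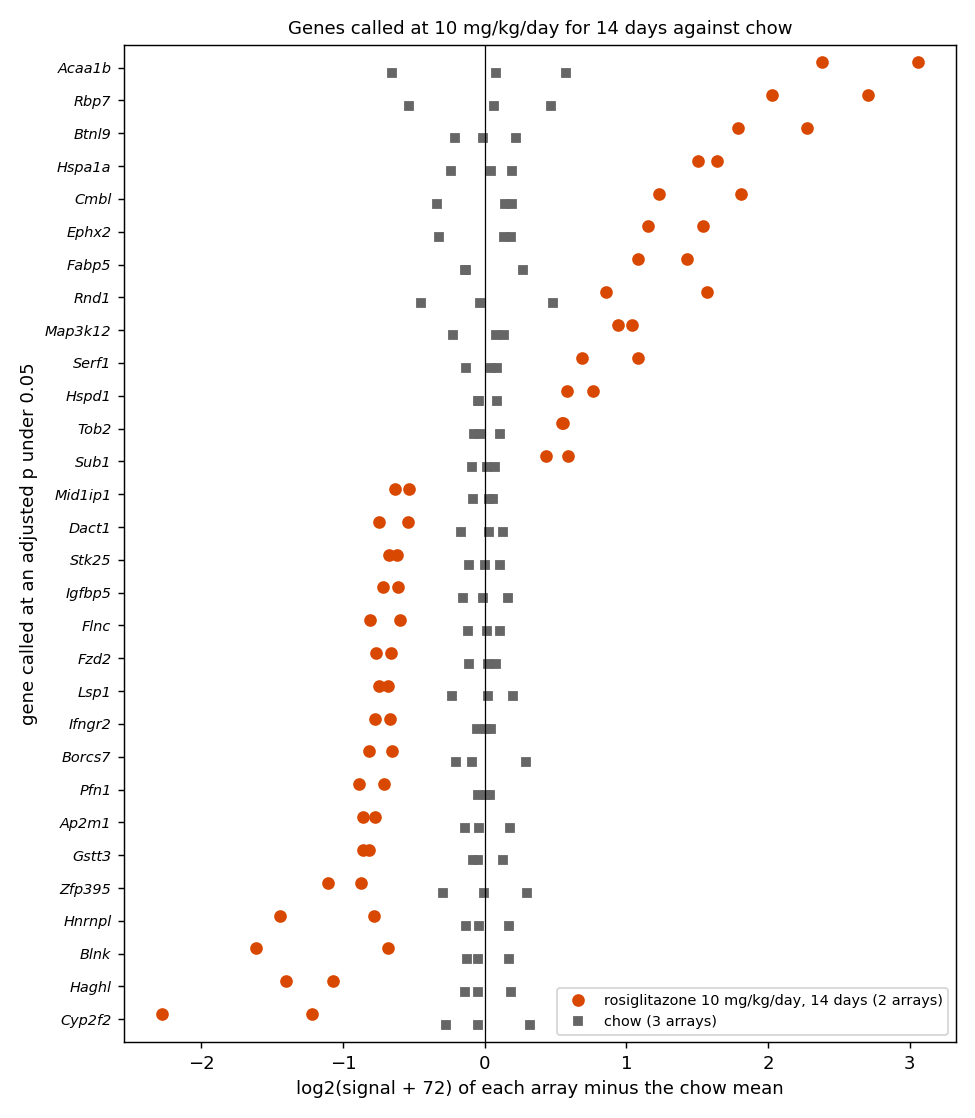
Each of the 30 called genes in each pool, as log2(signal + 72) minus the mean of the chow pools (x axis). Orange circles are the 2 treated pools and grey squares the 3 chow pools. In all 30 genes the treated pools lie outside the range of the chow pools, and Acaa1b and Cyp2f2 are at the ends.

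In all 30 genes the treated pools did not overlap the chow pools. Over all genes tested, both treated pools lay above every chow pool for 14.8% and below every chow pool for 20.3%. Few calls held when a pool was left out. Such a fit also has fewer arrays, so a lost call does not show that it rested on that pool. Without chow pool A the same test called 0 genes and gave 970 at an unadjusted p under 0.05. Without chow pool B it called 3, without chow pool C 6, without treated pool A 1 and without treated pool B 9. The direction of each of the 30 genes was the same in these 5 fits, but 21 of them were called in none. Set against all 6 untreated pools, chow and wild-type littermate together, both treated pools were above the range for 10 of the 13 genes that rose and below it for 15 of the 17 that fell. Over all genes tested these shares were 7.27% above and 9.43% below. The genes were called for their distance from the same chow pools, so nothing is read from their counts beside these shares or beside those over all 18 other arrays given below.

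Acaa1b, which encodes a peroxisomal thiolase that catalyses the last step of β-oxidation there, had the largest rise. The gene lies on chromosome 9 (GRCm38, 119148043 to 119157093). Its signals were 9150.1 and 5692 in the treated pools, against 1100.2, 1575 and 632.3 in the chow pools. The lower treated pool was well above the highest chow pool and above the wild-type littermates, at 2399, 2251 and 1420.3. The log2 fold change was 2.72 (SE 0.51, limma adjusted p = 0.0322), a 6.58-fold rise. Its neighbour and near-identical copy Acaa1a had a log2 fold change of 0.15 on its own probe set, and probe signal may be shared between copies that alike.

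Rbp7 and Fabp5 encode small cytosolic carriers, Rbp7 of retinol and Fabp5 of fatty acids. Rbp7 (chromosome 4, GRCm38, 149449687 to 149466462) had signals of 2376 and 1455 in the treated pools, against 319.8, 446.6 and 186.7 in the chow pools. Wild-type littermates, which had no drug, had Rbp7 signals of 1470.5, 794.1 and 776.9, and the highest of these passed the lower treated pool. The log2 fold change of Rbp7 was 2.37 (SE 0.47, limma adjusted p = 0.0389). Fabp5 had 17328 and 13600 in the treated pools, against 5787, 7711 and 5816 in the chow pools, and stood above all untreated pools. Its log2 fold change was 1.26 (SE 0.26, limma adjusted p = 0.0451), and a second probe set of the gene gave 1.36. Of 14 cytosolic lipid- and retinoid-binding proteins in the list, 4 passed the filter on low signals and all 4 had log2 fold changes above 0.7. The other two were Fabp3 at 1.39, a heart-type carrier, and Fabp4 at 0.74, the adipocyte carrier, neither of which passed the test (limma adjusted p = 0.109 and 0.198).

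Btnl9, a butyrophilin-like protein of the immunoglobulin family, also rose. The gene is on chromosome 11 (GRCm38, 49168325 to 49187089). Its signals were 1702 and 1192 in the treated pools, against 244.8, 355.7 and 292.2 in the chow pools. It was the single risen gene whose treated pools were both above the 18 other arrays of the series, which held for 0.361% of all genes tested. The log2 fold change was 2.03 (SE 0.32, limma adjusted p = 0.0295). Btnl9 was called in 3 of the 5 fits that left out a pool, more than any other called gene. Its second probe set was below the filter on low signals and gave a log2 fold change of 0.04, so the rise was seen on the brighter probe set alone.

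Ephx2 encodes soluble epoxide hydrolase, which breaks down epoxides of arachidonic acid that relax vessels, and Cmbl encodes a cytosolic hydrolase. Ephx2 had signals of 11156 and 8493 in the treated pools, against 4177, 4309 and 3014 in the chow pools (log2 fold change 1.35, SE 0.28, limma adjusted p = 0.0451). The range in wild-type littermates, 4960.3 to 8542, reached the lower treated pool. Cmbl had 2788 and 1847 in the treated pools, against 861.6, 828.6 and 574.9 in the chow pools (log2 fold change 1.52, SE 0.31, limma adjusted p = 0.0432).

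Most heat shock chaperones were higher in the treated pools than in chow, and the inducible HSP70 and the mitochondrial HSP60 passed the test. Hspa1a, the inducible HSP70, lies on chromosome 17 (GRCm38, 34969359 to 34972156). Its signals were 25041 and 27503 in the treated pools, against 7422, 9014 and 10022 in the chow pools and 9038, 7661 and 5830 in wild-type littermates. Hspa1a rose 2.98-fold (log2 fold change 1.58, SE 0.33, limma adjusted p = 0.0451). Hspd1, the mitochondrial chaperonin HSP60, lies on chromosome 1 (GRCm38, 55077833 to 55088243) and had signals of 22961 and 20254 in the treated pools, against 13131, 14329 and 13080 in the chow pools. Hspd1 rose with a log2 fold change of 0.67 (SE 0.13, limma adjusted p = 0.0389). Wild-type littermates had Hspd1 signals of 19087, 20821 and 16237, which reached the lower treated pool. The paralogue Hspa1b, nearly identical to Hspa1a in sequence, had 58395 and 62614 in the treated pools, against 16015, 26144 and 38686 in the chow pools (log2 fold change 1.25, SE 0.33, limma adjusted p = 0.118). Signal from the Hspa1 pair may be shared between their probe sets.

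The promoters of both chaperones that rose are shown here because they hold exact or near matches to the element that heat shock factors bind. The element was searched as GAANNTTCNNGAA on both strands, in the 250 bases before and 50 after each annotated start in RefSeq (GRCm38.p6). The Hspd1 stretch is chr1:55088053-55088082 on the minus strand. Its capitals mark 2 overlapping exact matches that begin 144 and 139 bases before an annotated start. The stretch lies within the Hspd1 span given above, so that start is an inner one and not the outer end of the gene. The Hspa1a stretch is chr17:34972157-34972406 on the minus strand, the 250 bases before the annotated start, and its capitals mark 2 overlapping matches with 1 mismatch each, at 114 and 109 bases before it.
Hspd1: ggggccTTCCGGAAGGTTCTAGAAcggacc
Hspa1a: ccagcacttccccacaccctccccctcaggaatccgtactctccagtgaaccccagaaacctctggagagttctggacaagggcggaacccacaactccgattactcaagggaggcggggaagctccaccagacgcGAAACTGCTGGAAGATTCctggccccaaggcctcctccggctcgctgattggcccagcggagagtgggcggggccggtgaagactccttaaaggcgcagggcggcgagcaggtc

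Of 29 chaperones of the heat shock list that were tested, 24 had a promoter sequence. An exact match lay in 4 of the 24, those of Hspd1, Hspe1, Hsph1 and Chordc1, against 0.662% of all genes with a promoter sequence. With 1 mismatch allowed, 12 of the 24 had a match, against 8.15% of all genes. These shares come from sequence alone and do not bear on the response to the drug. Of the 30 called genes 24 had a promoter sequence, and 1 of these, Hspd1, had an exact match. With 1 mismatch allowed 4 had a match, those of Acaa1b, Hspa1a, Hspd1 and Igfbp5. The start region of Hspd1 also serves Hspe1, its smaller partner, transcribed the other way. The Hsph1 signals were 17552 and 16892 in the treated pools, against 7980.3, 8866 and 10329 in the chow pools (log2 fold change 0.93, limma adjusted p = 0.0881). Hspe1 and Chordc1, which were named for their match, had log2 fold changes of 0.53 and 0.64 (limma adjusted p = 0.169 and 0.214). For a set of 26 PPAR target genes with a promoter sequence, the PPAR-type repeat AGGTCANAGGTCA had 0 exact matches, against 0.0481% of all genes. With up to 2 mismatches it lay in 4 of the 26, those of Aqp7, Cd36, Plin2 and Ucp3, against 4.4% of all genes. With up to 2 mismatches the same repeat also lay in 3 of the 24 chaperones, Hspd1 and Hspe1 among them. The heat shock element with 1 mismatch allowed lay in 2 of the 26 PPAR targets. A match is a run of letters and not a measured binding site.

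In the heat shock list, 24 of 29 tested members had log2 fold changes above 0 and the median was 0.43, beside -0.02 for all genes tested. Members at an unadjusted p under 0.05 numbered 17 higher and 1 lower, beside 4.78% and 7.77% of all genes. Both treated pools were above every untreated pool, chow and wild-type littermate, for 15 of the 29, beside 7.27% of all genes. The summed signal of the list was 576742 and 585229 in the treated pools, against 393032, 427354 and 430864 in the chow pools. The wild-type littermates, at 453238, 411935 and 404801, were nearer to chow than to the treated pools. The pools at 10 mg for 2 days had 607532, 481830 and 546030, the highest of them above both treated pools. The list's median stayed between 0.38 and 0.43 when any 1 pool was left out. Dnaja1, the HSP40 partner of HSP70, was well above the list's median, with 24055 and 22060 in the treated pools, against 11101, 13391 and 12565 in the chow pools (log2 fold change 0.90, limma adjusted p = 0.123). The 1 member lower at an unadjusted p under 0.05 was Hspb2, a small heat shock protein of muscle, at -0.36. Chaperones of the endoplasmic reticulum had no such shift: 16 of 29 were above 0, the median was 0.11, and Pdia4, a protein disulphide isomerase, was at -0.82 (limma adjusted p = 0.0881).

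Other genes that rose have roles in signalling and transcription. Rnd1, a small GTPase that loosens actin stress fibres, had signals of 814.8 and 1386 in the treated pools, against 408.4, 286.5 and 612.1 in the chow pools (log2 fold change 1.21, SE 0.25, limma adjusted p = 0.0432). Map3k12, a stress-activated kinase, had 4236 and 4546 in the treated pools, against 1851, 2296 and 2396 in the chow pools (0.99, SE 0.18, limma adjusted p = 0.0322). Its second probe set gave -0.21, of opposite sign. Serf1 had a log2 fold change of 0.89, and its second probe set gave 0.17. Tob2, an antiproliferative protein, had 20904 and 20987 in the treated pools, against 13531, 15391 and 13952 in the chow pools (0.55, SE 0.11, limma adjusted p = 0.039). Sub1, a transcriptional coactivator, rose by 0.51 on the log2 scale, while its second probe set gave -0.23. All 5 stood above every untreated pool.

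Cyp2f2, a cytochrome P450 of foreign-compound metabolism on chromosome 7 (GRCm38, 27119955 to 27133660), had the largest fall. Its signals were 133.7 and 356.9 in the treated pools, against 1173, 895.3 and 753.9 in the chow pools and 806.8, 1058 and 855.2 in wild-type littermates. The treated pools were below all of these, with a log2 fold change of -1.75 (SE 0.33, limma adjusted p = 0.0322). Treated pool A was dim for Cyp2f2, below the mean signal of 352 that the filter asked for. The value was -1.22 without treated pool A and -2.28 without treated pool B. Gstt3, a theta-class glutathione transferase, had 1851 and 1910.3 in the treated pools, against 3743, 3306 and 3235 in the chow pools (log2 fold change -0.84, SE 0.15, limma adjusted p = 0.0322). Haghl, related to a hydrolase of glutathione conjugates, had 1180.2 and 1509 in the treated pools, against 2936, 3697 and 3136 in the chow pools (log2 fold change -1.24, SE 0.20, limma adjusted p = 0.0295). The list of glutathione transferases and drug-metabolizing enzymes did not lean one way: 15 of 34 tested members were above 0, the median was -0.07, and its calls were Cyp2f2 and Gstt3 lower and Ephx2 higher. Pon1, paraoxonase, was at -1.19 with no call (limma adjusted p = 0.133).

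Fzd2, a Wnt receptor, Dact1, which binds Dishevelled in the same pathway, and Igfbp5, which binds insulin-like growth factors, all fell. Igfbp5 had signals of 14331 and 15400 in the treated pools, against 26456, 23348 and 21182 in the chow pools (log2 fold change -0.66, SE 0.13, limma adjusted p = 0.0389). A second Igfbp5 probe set gave -1.13. Fzd2 had 6662 and 6193 in the treated pools, against 10775, 9792 and 11208 in the chow pools (log2 fold change -0.71, SE 0.13, limma adjusted p = 0.0322). A second Fzd2 probe set, also bright, gave -0.29, and with the mean of the probe sets the gene was at -0.48 and was not called (limma adjusted p = 0.0862). Wild-type littermates overlapped the treated pools for Fzd2, with 7519.6, 6319 and 8216. Dact1 had 3216 and 3728 in the treated pools, below all 18 other arrays, against 5965, 5575 and 4850 in the chow pools (log2 fold change -0.64, SE 0.12, limma adjusted p = 0.0322). Among 26 tested genes of the IGF and Wnt list, 7 were above 0 and 19 below, with a median of -0.14, and the 2 calls were Fzd2 and Igfbp5.

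Genes of the actin cytoskeleton were among those that fell. Pfn1, profilin, which delivers actin monomers to growing filaments, had signals of 14249.5 and 16123 in the treated pools, against 27122, 25594 and 26559 in the chow pools (log2 fold change -0.80, SE 0.15, limma adjusted p = 0.0322). Flnc, filamin C, an actin crosslinker of muscle, had 2219 and 1914 in the treated pools, against 3666, 3436 and 3125 in the chow pools (log2 fold change -0.70, limma adjusted p = 0.0415). Lsp1, an F-actin-binding protein of leukocytes, had 1859.5 and 1938 in the treated pools, against 3650, 3216 and 2689.5 in the chow pools (log2 fold change -0.71, limma adjusted p = 0.0389). In the actin dynamics list 30 of 35 tested members were below 0, but the median was only -0.09 (-0.04 without treated pool A, -0.17 without treated pool B). At an unadjusted p under 0.05 there were 11 lower and 2 higher, beside 7.77% and 4.78% of all genes. The list held 1 call in each direction, Pfn1 lower and Rnd1 higher at 1.21, and Fscn1, fascin, an actin bundler, was at 0.86 (limma adjusted p = 0.0575).

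Ifngr2, a chain of the interferon-γ receptor, had 1381 and 1493 in the treated pools, against 2432, 2492 and 2317 in the chow pools (log2 fold change -0.72, SE 0.14, limma adjusted p = 0.0322). Its second probe set gave 0.61. Blnk, an adaptor of the B-cell receptor, was dim, with 173.8 and 397.9 in the treated pools, against 776.2, 620.7 and 656.9 in the chow pools (log2 fold change -1.15, SE 0.24, limma adjusted p = 0.0451). Without treated pool A the value for Blnk was -0.68. The remaining 6 genes that fell were Hnrnpl, a splicing regulator, Zfp395, a zinc finger protein, Ap2m1, a clathrin adaptor subunit, Borcs7, a subunit of the complex that positions lysosomes, Stk25, a kinase, and Mid1ip1, which activates acetyl-CoA carboxylase. Their log2 fold changes ran from -1.11 for Hnrnpl to -0.58 for Mid1ip1. For Hnrnpl a second probe set gave 0.69, of opposite sign, but was dim. For Stk25 the wild-type littermates, at 1935, 2316 and 1923, were lower than the treated pools, at 2840 and 2948, and chow was above both. Both treated pools were below all 18 other arrays for 7 genes, Blnk, Hnrnpl, Zfp395, Gstt3, Borcs7, Lsp1 and Dact1, beside 0.83% of all genes tested. Of the 30 called genes, 13 had a second probe set. It was below the filter on low signals for Btnl9 and Hnrnpl, and of the other 11 it had the same sign in 8.

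The PPAR targets of lipid handling were mostly higher than chow, but few stood apart from untreated wild-type aortas. Of 40 genes in the list 32 were tested, and 27 of these had log2 fold changes above 0, with a median of 0.71. At an unadjusted p under 0.05 there were 19 higher and 1 lower, beside 4.78% and 7.77% of all genes. Acaa1b and Fabp5 were the 2 calls, beside 0.271% of all genes. Pdk4, the kinase that shuts off pyruvate dehydrogenase, had 20139 and 10794 in the treated pools, against 5941, 5531 and 3077 in the chow pools (log2 fold change 1.65, limma adjusted p = 0.112). Cd36, the fatty acid transporter, had 15588 and 11231 in the treated pools, against 6551, 6916 and 3775 in the chow pools (log2 fold change 1.24, limma adjusted p = 0.15). Wild-type littermates had Cd36 signals of 17709, 20561 and 10319, so the untreated groups spanned the treated one. Both treated pools were above all 6 untreated pools for 6 of the 32, beside 7.27% of all genes. The list's summed signal was 592987 and 470183 in the treated pools, against 361679, 367287 and 242120 in the chow pools and 552948, 656834 and 419403 in wild-type littermates. The 1 member lower at an unadjusted p under 0.05 was Me1, malic enzyme, at -0.69.

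Markers of fat cells moved with these genes, and their part in the result was not tested. Of 17 tested brown adipocyte markers 16 were above 0, with a median of 0.77, and 0 of them were above all untreated pools. Over all 19 brown markers measured, the summed signal was 199543 and 137794 in the treated pools. It was 102541, 93402 and 55641 in the chow pools and 176778, 217257 and 115598 in wild-type littermates. Ucp1, the uncoupling protein of brown fat, had 42054 and 25691 in the treated pools, against 22673, 15924 and 6878 in the chow pools (log2 fold change 1.27, limma adjusted p = 0.316). Of 18 tested general adipocyte markers 14 were above 0, with a median of 0.47. Adipoq, adiponectin, had 57818 and 43794 in the treated pools, against 31584, 33892 and 18240 in the chow pools (log2 fold change 0.90, limma adjusted p = 0.291). Leaving out chow pool C gave a PPAR target median of 0.50, and leaving out treated pool B gave 0.95. The brown marker median was 0.30 without treated pool A and 1.31 without treated pool B, and that of the general adipocyte markers was 0.20 without chow pool C and 0.77 without treated pool B. In pools of whole tissue, fewer cells of a type and less RNA per cell cannot be told apart. The same marker lists were higher in untreated wild-type littermates than in chow, with medians of 0.84 for brown markers and 0.79 for PPAR targets. The median of the heat shock list for littermates against chow was 0.07, though Hspd1 was higher in littermates than in chow.

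**Figure D2:**
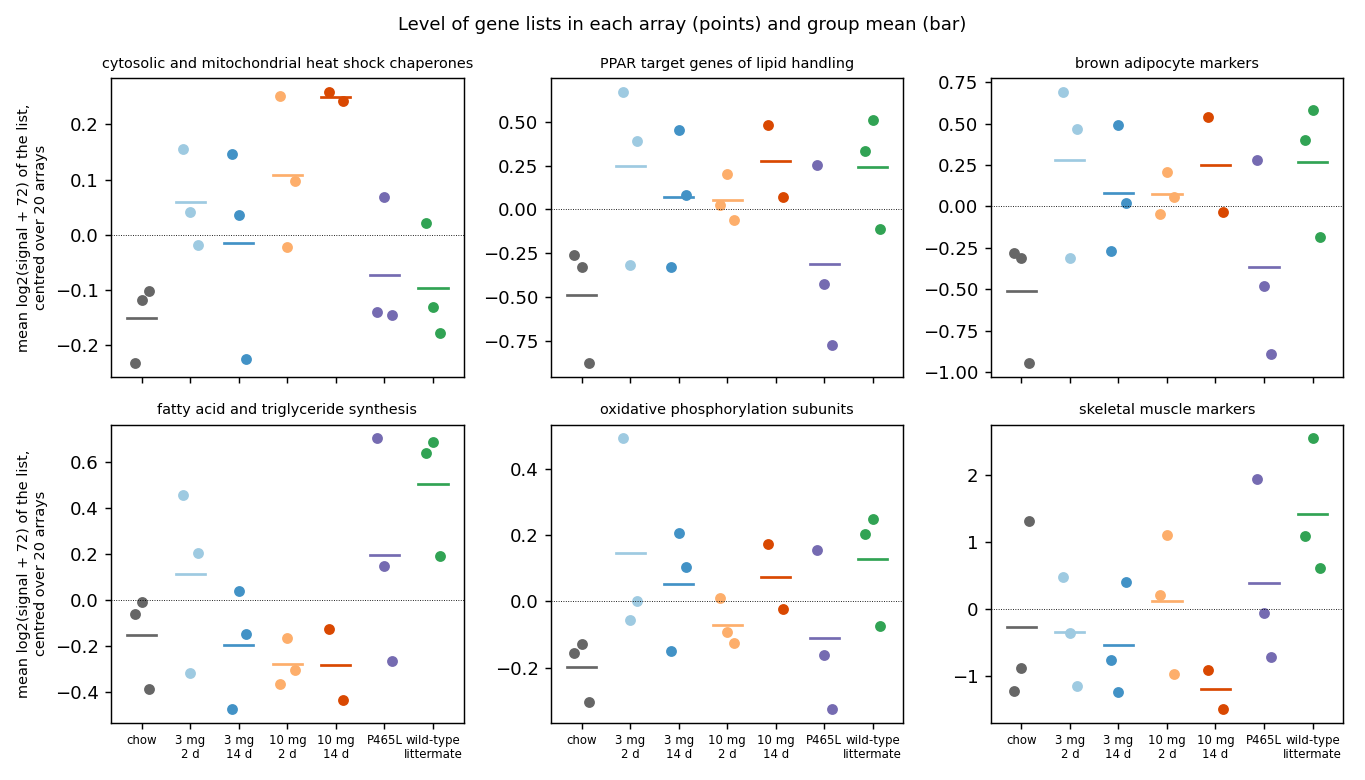
Mean log2(signal + 72) of 6 gene lists in each pool, each gene centred over the 20 arrays (y axis), by group (x axis, with dose and time of rosiglitazone), with bars at group means. The treated pools at 10 mg for 14 days are above all untreated pools for the heat shock list, and are within the range of wild-type littermates for PPAR targets and brown adipocyte markers.

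The receptors themselves were not called. Pparg had signals of 2152 and 1114 in the treated pools, against 1526, 1339 and 725.5 in the chow pools, and its log2 fold change of 0.42 had an SE of 0.43. Ppara, the receptor of fatty acid oxidation, had 2831 and 1871 in the treated pools, against 880.2, 1085 and 704.3 in the chow pools (log2 fold change 1.32, limma adjusted p = 0.131). Ppard was at -0.41 and Rxra, the shared partner, at -0.32.

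Mitochondrial energy genes had small shifts in the same direction. Of 23 tested genes of mitochondrial β-oxidation 21 were above 0, with a median of 0.55. Of 70 oxidative phosphorylation subunits 67 were above 0, with a median of 0.26. Both treated pools were above every chow pool for 45 of them, beside 14.8% of all genes. They were above all 6 untreated pools for only 7 of the 70, beside 7.27% of all genes. Cycs, cytochrome c, had 79399 and 70216 in the treated pools, against 47049, 46637 and 39881 in the chow pools (log2 fold change 0.75, limma adjusted p = 0.127). Of 21 tricarboxylic acid cycle genes 20 were above 0, with a median of 0.36, and Sucla2, a succinyl-CoA synthetase subunit, was highest at 0.91. None of these 3 lists held a gene called by limma, and at an unadjusted p under 0.05 they held 9, 14 and 8 higher members, beside 4.78% of all genes. Without treated pool A, the higher of the pair on fat cell markers, the 3 medians were 0.20, 0.17 and 0.22, and without chow pool C that of β-oxidation was 0.32. Wild-type littermates were also higher than chow on these lists, with medians of 0.70, 0.32 and 0.56. Of 25 peroxisomal genes 17 were above 0, with a median of 0.19, and Acaa1b and Ephx2 were called. Without treated pool B that median was 0.34.

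Genes of fatty acid synthesis stood the other way. Of 26 tested genes of fatty acid and triglyceride synthesis 16 were below 0, with a median of -0.15, and 7 were lower at an unadjusted p under 0.05, beside 7.77% of all genes. Fasn, fatty acid synthase, had 13602 and 9174 in the treated pools, against 27361, 30991 and 22492 in the chow pools and 56130.2, 65040.4 and 45790 in wild-type littermates. Both treated pools were the lowest of these 8, with a log2 fold change of -1.25 (SE 0.32, limma adjusted p = 0.112). Scd1, which desaturates fatty acids, had 39851 and 24000 in the treated pools, against 66277, 74796 and 48929 in the chow pools (log2 fold change -1.01, limma adjusted p = 0.0954). Acly, which makes cytosolic acetyl-CoA, was at -0.88 (limma adjusted p = 0.169), and at -0.38 with the mean of its probe sets. For 8 of the 26 genes both treated pools were below all untreated pools, beside 9.43% of all genes. Pck1, which feeds glycerol synthesis in fat cells, was at the other end with 1.63 (limma adjusted p = 0.163). The list was higher in wild-type littermates than in chow, with a median of 0.69, and in the treated pools its median was below 0 where those of the adipocyte markers were above 0. Cholesterol synthesis was also on the low side, with 16 of 20 below 0 and a median of -0.18, which was -0.30 without chow pool A and -0.08 without chow pool C.

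**Figure D3:**
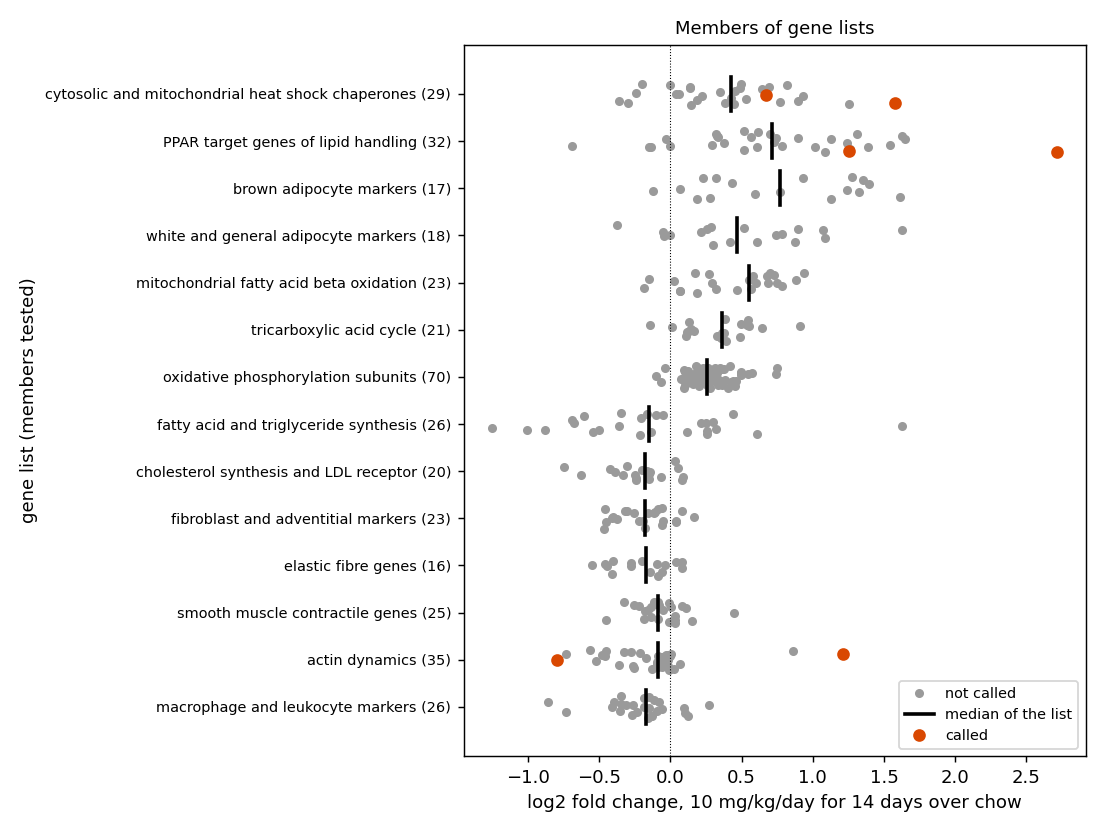
Log2 fold change of treated over chow pools (x axis) for every tested member of 14 gene lists (rows), with called members in orange and the list median as a bar. Medians run from 0.77 for brown adipocyte markers to -0.18 for cholesterol synthesis.

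Markers of the vessel wall's own cells had small shifts. Of 25 smooth muscle contractile genes 17 were below 0, with a median of -0.08, and Myh11, smooth muscle myosin, was at -0.18. Endothelial markers split, with 13 of 25 above 0 and a median of 0.01. Gpihbp1, which anchors lipoprotein lipase on capillary endothelium, had 4286 and 2358 in the treated pools, against 1245, 1054 and 803.5 in the chow pools (log2 fold change 1.58, limma adjusted p = 0.123). Kdr, the VEGF receptor, was at 0.88 (limma adjusted p = 0.233), and Pecam1, an endothelial adhesion molecule, had 12483 and 10085 in the treated pools, against 18466, 16832 and 15342 in the chow pools (log2 fold change -0.58, limma adjusted p = 0.109). Of 23 fibroblast markers 19 were below 0, with a median of -0.18, and Lum, lumican, was lowest at -0.47. Of 16 elastic fibre genes 13 were below 0, with a median of -0.17. Neither list held a call, and 7 and 5 members were lower at an unadjusted p under 0.05, beside 7.77% of all genes. Small medians moved with single pools: the fibroblast median was -0.10 without chow pool A, and the elastic fibre median was -0.08 without treated pool A and -0.31 without treated pool B. The smooth muscle median was -0.02 without treated pool A and -0.17 without treated pool B.

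Leukocyte and interferon lists had medians below 0 and no call. Of 26 macrophage and leukocyte markers 22 were below 0, with a median of -0.17. At an unadjusted p under 0.05, 4 were lower, beside 7.77% of all genes. Itgb2, the leukocyte integrin chain, had 695.9 and 932.8 in the treated pools, against 1905, 1460.2 and 1260 in the chow pools (log2 fold change -0.86, limma adjusted p = 0.133). Coro1a, a coronin of leukocytes, was at -0.74 (limma adjusted p = 0.0887). The summed signal of the list was 125133 and 130885 in the treated pools, against 162902, 141456 and 133373 in the chow pools. Of 25 interferon response genes 20 were below 0, with a median of -0.24, and 1, Stat2, was lower at an unadjusted p under 0.05, a share below the 7.77% of all genes. All 7 tested MHC class II genes were below 0, with a median of -0.32, but the treated pools overlapped the chow pools for all 7. Without chow pool A the macrophage median was -0.10 and the MHC class II median -0.17, and without chow pool C the interferon median was -0.15. Skeletal muscle markers had a median of -0.83, which became -0.17 without chow pool C and -1.43 without chow pool B.

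Against 3 mg/kg/day at the same 14 days, limma called 0 genes, with 562 at an unadjusted p under 0.05 (5.07%) and a smallest adjusted p of 0.774. Against 2 days at the same dose it also called 0, with 382 at an unadjusted p under 0.05 (3.45%) and a smallest adjusted p of 1.0. A p that misses the threshold does not show that the doses or times act alike. Of the 30 genes called against chow, 17 reached an unadjusted p under 0.05 between doses and 6 between times. The same 2 treated pools chose these genes and enter both differences, so these counts are a description and nothing is read from them. For Btnl9 the difference of 10 mg from 3 mg was 0.78 on the log2 scale (SE 0.32), and that of 14 from 2 days was 0.55 (SE 0.32). Hspa1a differed by 0.69 between doses (SE 0.33) and by 0.17 between times (SE 0.33). The heat shock list had a median dose difference of 0.30, and 10 of its 29 members reached an unadjusted p under 0.05, beside 5.07% of all genes. Its median time difference was 0.14, and 2 of the 29 reached that level, beside 3.45% of all genes. Against chow its median was 0.29 at 10 mg for 2 days. For PPAR targets the median dose difference was 0.17, and 1 of 32 reached that level. The PPAR target median against chow was 0.73 at 3 mg for 2 days, beside 0.71 at 10 mg for 14 days. It was 0.50 at 3 mg for 14 days and 0.50 at 10 mg for 2 days. Medians at 3 mg for 2 days were 0.835 for brown markers and 0.70 for general adipocyte markers, beside 0.77 and 0.47. For oxidative phosphorylation it was 0.33 beside 0.26, and for the heat shock list 0.185 beside 0.43.

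The rosiglitazone groups share the 3 chow pools, so their values against chow are given side by side and not as independent. For Acaa1b the log2 fold changes against chow were 1.53 at 3 mg for 2 days, 1.71 at 3 mg for 14 days, 2.04 at 10 mg for 2 days and 2.72 at 10 mg for 14 days. For Hspa1a the values in that order were 0.91, 0.88, 1.40 and 1.58. Cyp2f2 had -0.58, -1.52, -1.45 and -1.75, and Igfbp5 had -0.38, -0.48, -0.55 and -0.66. Pfn1 had -0.15, -0.43, -0.88 and -0.80, so the pools at 10 mg for 2 days were as low as those for 14 days. Blnk had -0.41, -0.13, -0.30 and -1.15, and its difference between doses was -1.02 (SE 0.24). In 3 mg groups 0 genes were called against chow at either time, and at 10 mg for 2 days 56 were called.

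**Figure D4:**
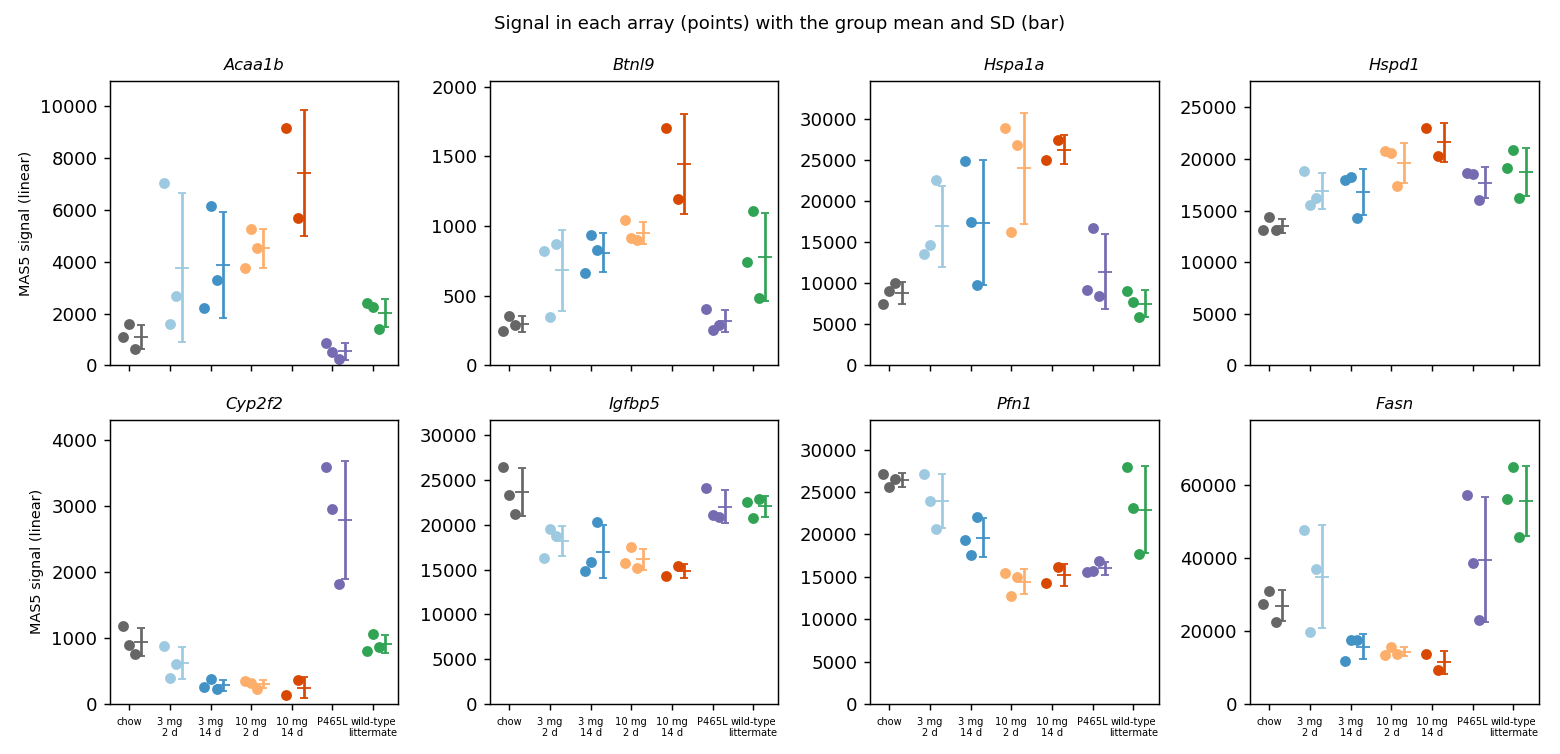
Linear signals of 8 genes in every pool (points) with the group mean and SD (bar), for chow, the 4 rosiglitazone groups in order of dose and time, P465L mice and wild-type littermates. Btnl9 at 10 mg for 14 days lies above all other groups, while Fasn has its lowest mean there and its highest in wild-type littermates.

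The genes with the smallest p-values between doses were Nr4a3, Med4, Tank, Blnk and Riok2. Nr4a3, an immediate early nuclear receptor, had 3458 and 1946 in the pools at 10 mg for 14 days and was 0.98 higher than at 3 mg (SE 0.21, limma adjusted p = 0.774). Tank, a regulator of NF-κB signalling, was 1.13 higher, and its 2 treated pools were far apart at 5630.3 and 2561. Med4, a Mediator subunit, and Riok2, a kinase of ribosome assembly, were 0.57 and 0.71 higher. Between times the genes were S100a8, Alox12, Zfp33b, Apod and Mrpl33. S100a8, a calcium-binding protein of neutrophils, had 995.5 and 683.8 at 10 mg for 14 days and was lower than at 2 days by -1.19 on the log2 scale (SE 0.26, limma adjusted p = 1.0). Alox12, a lipoxygenase, was at -0.63 and Zfp33b at -1.04, while Apod, a lipocalin, was at 0.51 and Mrpl33, a mitochondrial ribosomal protein, at 0.55.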

How the data were processed

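Aortic RNA was hybridized to Affymetrix Mouse Genome 430 2.0 arrays, 1 pool of 8 aortas each. The deposited intensity values were linear signals per probe set, made by the authors with MAS5, per the submitters' processing notes. The values showed scaling of each array to a mean of 1500 without the lowest and highest 2% of probe sets. The MAS5 version and detection calls are not given in the sources used here.

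Of 45101 probe sets, 34945 had 1 gene symbol in the platform annotation. Each of 18193 genes took its brightest probe set and was tested if its mean over all arrays reached the 50th percentile of probe set means, a signal of 352, which left 11081 genes. Signals were taken as log2(signal + 72). One limma 3.58.1 fit (R 4.3.3) with a mean per group over all 20 arrays and a variance trend gave two-sided tests with 13 residual degrees of freedom. Benjamini-Hochberg adjustment ran over all genes tested, and genes were called at an adjusted p under 0.05. The number of arrays limits the precision. The code was tested on simulated data. Array letters were not used as pairs.

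Named genes were all called genes, up to 4 members of each list with the largest changes, the 5 smallest p-values between doses and between times, and a few fixed receptors and markers. Acaa1a, Hspe1, Chordc1, Aqp7, Plin2, Ucp3, Me1, Hspb2 and Stat2 were named after their values or matches were seen. The group, lists and rules were chosen with earlier results of these data known. Positions and promoters came from RefSeq on GRCm38. Alternatives covered the offset, filter, probe set rule, normalization, variance model, arrays fitted, replicate block and leaving out each pool.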

Additional observations from a re-analysis of the deposited data

Results flagged for a closer look

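Probe sets with no single gene symbol were outside the comparisons above and were tested apart. Of 3130 of them, 2 passed an adjusted p under 0.05 in limma, and 262 had an unadjusted p under 0.05. Probe set 1423702_at had signals of 5839 and 7549.6 in the pools at 10 mg/kg/day for 14 days, against 12211, 10949 and 12378 in the chow pools, with a log2 fold change of -0.83 (limma adjusted p = 0.00771). Probe set 1426710_at had 8212 and 8644 in the treated pools, against 15237, 13877 and 13728 in the chow pools, with a log2 fold change of -0.76 (limma adjusted p = 0.0158). The treated pools lay below the chow pools for both. The annotation used here pairs neither with a single gene.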

How the results depend on the processing

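The 30 calls against chow changed with how the variance is shared and when a pool was left out, which also leaves fewer arrays. The direction of the called genes was kept in each of the 17 alternatives for those tested there. Those tested were 29 of the 30 with the filter at the 60th percentile or the mean of a gene's probe sets. They were all 30 otherwise. The count was 0 without the filter on dim probe sets (1771 at an unadjusted p under 0.05) and 0 without a variance trend (1372 at an unadjusted p under 0.05). It was 9 with only the rosiglitazone experiment fitted, 52 with only the 2 groups compared, and 256 with array weights. Quantile normalization gave 43, with all 30 among them, and the mean of a gene's probe sets gave 30, of which 18 were among the 30. With the replicate block the count was 21. Same-letter pools of treated and chow mice had correlations of -0.03 and -0.10 in their deviations from the group means. The deviations of the 2 treated pools mirror each other, so these values cannot show whether the letters pair pools. Over all groups, same-letter correlations ran from -0.30 to 0.36, with a median of 0.025. Leaving out 1 pool gave counts between 0, without chow pool A, and 9, without treated pool B. Between doses the count was 0 in every alternative except the fit without treated pool B, with 9, and these fits ranged between 0 and 9. Between times it was 0 except with only the 2 groups compared, with 2. Among genes named above that were not called, signs turned for values near 0: Acta2 against chow was at -0.084 with the mean of its probe sets, -0.019 with quantile normalization, -0.045 with the replicate block, and between -0.067, without chow pool C, and 0.071, without treated pool A, when a pool was left out. Pparg was between -0.036, without treated pool A, and 0.871, without treated pool B, and Apod against chow was at 0.59 with the mean of its probe sets. The cause of these changes was not tested. MAS5 signals near the offset of 72 have no reliable order, and 2 pools limit the precision of every value of the treated group.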

Other observations

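Immediate early genes, which are switched on within minutes by many stimuli, were slightly higher in the pools at 10 mg/kg/day for 14 days. Of 27 tested members 19 had log2 fold changes above 0 against chow, with a median of 0.14 (0.09 without treated pool B). At an unadjusted p under 0.05, 5 were higher and 1 lower, beside 4.78% and 7.77% of all genes. Both treated pools were above all 6 untreated pools for 9 of the 27, beside 7.27% of all genes tested. Atf3, a stress-induced transcription factor, had signals of 3717 and 4217 in the treated pools, against 2575, 2424 and 2527 in the chow pools and 1973, 1936 and 1675 in wild-type littermates (log2 fold change 0.64, limma adjusted p = 0.399). The wild-type littermates were below chow on this list, with a median of -0.32.

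Genes of glucose use had no call. Of 24 tested members 17 were below 0, with a median of -0.12. Pkm, pyruvate kinase, had signals of 14741.5 and 14686 in the treated pools, against 20069, 19826 and 17702 in the chow pools (log2 fold change -0.38, limma adjusted p = 0.29). Trarg1, a partner of the insulin-regulated glucose transporter in fat cells, was at 0.87 (limma adjusted p = 0.268). Among retinoid genes Cyp26b1, which degrades retinoic acid, had 854.6 and 687 in the treated pools, against 1009, 1235 and 1649 in the chow pools (log2 fold change -0.68, limma adjusted p = 0.127). Slc40a1, the iron exporter ferroportin, had 836.3 and 831.9 in the treated pools, against 483.8, 369 and 286.2 in the chow pools (log2 fold change 1.03, limma adjusted p = 0.107). Hp, haptoglobin, had 4616 and 3742 in the treated pools, against 10446, 10058 and 5475 in the chow pools, and the treated pools were the lowest (log2 fold change -0.99, limma adjusted p = 0.285).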
